A study of Rattus norvegicus with 18 samples.

Results

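The neutrophil recruitment axis was followed through rat oral carcinogenesis as 8 genes: the CXC chemokines Cxcl1, Cxcl2, Cxcl3, Cxcl6 and Ppbp, their receptor Cxcr2, the granulocyte growth factor Csf3 (G-CSF) and its receptor Csf3r. The members were every probe set whose gene symbol in the array annotation was one of these 8 symbols. They came to 12 of the 31042 probe sets tested and to 8 of the 14217 genes with a probe set of their own. Cxcl3 had 5 probe sets and each other member had 1. Where a gene is given by 1 value, the probe set of highest mean log2 signal was used. In male Sprague Dawley rats given 4-nitroquinoline-1-oxide (4NQO, a DNA-damaging carcinogen, 0.002% in the drinking water), tongue lesions were taken between weeks 14 and 22 as dysplasia or squamous cell carcinoma (SCC), while normal tissue came from rats given distilled water. From each stage the epithelia and the submucosal fibroblasts were put on expression arrays, with 3 samples in each of the 6 groups and 18 samples in all: normal, dysplasia and SCC fibroblasts, and normal, dysplasia and SCC epithelia. Each sample pooled 3 rats according to the methods, and p-values measured the spread between these pools.

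The 2 layers were handled differently before RNA was taken. The epithelial sheet was lifted off after dispase and frozen, whereas the connective tissue was digested with collagenase for 30 minutes and the cells that stuck to a dish within 25 minutes were kept as fibroblasts. Layer and handling cannot be told apart in any comparison of fibroblasts with epithelia. In bulk RNA, fewer cells of a type and less RNA per cell cannot be told apart either. The fibroblast samples carried 16 fibroblast markers at a mean log2 signal of 11.88 to 12.63 by group, against 6.85 to 9.53 in epithelia, but they also carried 15 epithelial markers at 11.70 to 12.23, against 12.94 to 13.06 in epithelia. The summed signal of 16 macrophage and monocyte markers ran between 17754 and 74244 in the fibroblast samples, against 1797 to 21464 in the epithelial ones. The fibroblast samples numbered 3 stood apart from the other two of their group at each stage, with fewer epithelial transcripts (normal 38062, dysplasia 86244 and SCC 74228 in summed marker signal, against 105581 to 122205 in the other fibroblast samples). Fibroblast results are therefore also given without these 3 samples where they changed. SCC fibroblasts also differed in RNA quality as the array reads it: the log2 signal of the 3' less the 5' actin probe sets was 1.20 ± 0.06, against 1.78 ± 0.21 in dysplasia fibroblasts and 1.74 ± 0.26 in normal fibroblasts (SD, n = 3 each).

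Neutrophils leave the blood along gradients of CXC chemokines that carry a glutamate-leucine-arginine (ELR) motif ahead of the first cysteines, and all 5 chemokine members are of this kind. They signal through Cxcr2, a receptor of mature neutrophils. Csf3 drives the production and release of granulocytes from the marrow and acts through Csf3r, found chiefly on granulocytes and their precursors. In squamous mucosa, interleukin-1, tumor necrosis factor and interleukin-17 induce the ligands in epithelial and stromal cells through NF-kB. Ppbp (CXCL7) is otherwise known as a platelet granule protein.

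The 5 chemokine genes lay side by side in the rat genome. In the RefSeq annotation of GRCr8 they shared 1 stretch of chromosome 14, in the order Cxcl2, Cxcl1, Cxcl3, Ppbp and Cxcl6, with the platelet chemokine gene Pf4 between Cxcl3 and Ppbp. Of 7 protein-coding genes from the first to the last, 5 were members. Csf3, Cxcr2 and Csf3r lay apart, on chromosomes 10, 9 and 5. RefSeq promoter sequences of this build, 300 bases from 250 before the start to 50 after it, were matched for 6 of the 8 members by symbol: Cxcl1, Cxcl2, Cxcl6, Ppbp, Cxcr2 and Csf3r.

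The last 130 bases before the start are shown for the 4 chemokines with a promoter. These neighbours differed in where and when their signal changed, and the part of these letters in that was not tested. Capitals mark each match, on either strand, to GGNNTTTCC (a form of the NF-kB element) or to TATAAA (a form of the TATA box).

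Cxcl1, chr14:17479322-17479451, minus strand: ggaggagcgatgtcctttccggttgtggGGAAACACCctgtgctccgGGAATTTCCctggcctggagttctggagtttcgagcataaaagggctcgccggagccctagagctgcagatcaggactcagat
Cxcl2, chr14:17467256-17467385, minus strand: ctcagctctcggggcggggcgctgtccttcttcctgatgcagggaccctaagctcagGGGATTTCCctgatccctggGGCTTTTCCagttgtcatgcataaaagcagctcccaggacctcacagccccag
Cxcl6, chr14:17596418-17596547, minus strand: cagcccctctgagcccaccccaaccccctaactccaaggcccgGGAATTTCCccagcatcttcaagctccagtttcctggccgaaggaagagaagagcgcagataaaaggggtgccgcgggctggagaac
Ppbp, chr14:17587300-17587429, minus strand: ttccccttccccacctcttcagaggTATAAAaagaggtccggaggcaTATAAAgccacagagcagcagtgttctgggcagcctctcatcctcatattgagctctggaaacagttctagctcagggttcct

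GGNNTTTCC was found in 3 of the 6 members with a promoter, namely Cxcl1 (starting 102 bases before the start on the opposite strand and 83 before on the gene's strand), Cxcl2 (73 and 53 before) and Cxcl6 (87 before), and in 6.05% of all 33469 promoters of the table. Its stricter form GGAATTTCC, which overlaps it, was found in Cxcl1 and Cxcl6 and in 0.332% of all promoters. TATAAA was found only in Ppbp among the 6, starting 105 and 83 bases before the start, and in 14.2% of all promoters. Only these exact letters were searched for, and the stretches shown for Cxcl1, Cxcl2 and Cxcl6 hold the similar letters ATAAAA nearer the start. Of the other elements searched on both strands, TTGCNNAA (a C/EBP-type element) was found in Cxcl2 and Cxcl6, farther out than the stretch shown, and in 10.6% of all promoters, while TGANTCA (an AP-1-type element) was in none of the 6 and in 7.33% of all. Each match is a description of these letters and not of a bound site.

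Signals were on the linear array scale, and fold changes are log2 differences of group means from limma, called where the Benjamini-Hochberg adjusted p over all probe sets was under 0.05. Levels of different members were not set against each other, because each probe set has its own brightness. A rank among all probe sets of an array and a summed marker signal carry the same limit. The plot of the members by sample gives every value.

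**Figure D1:**
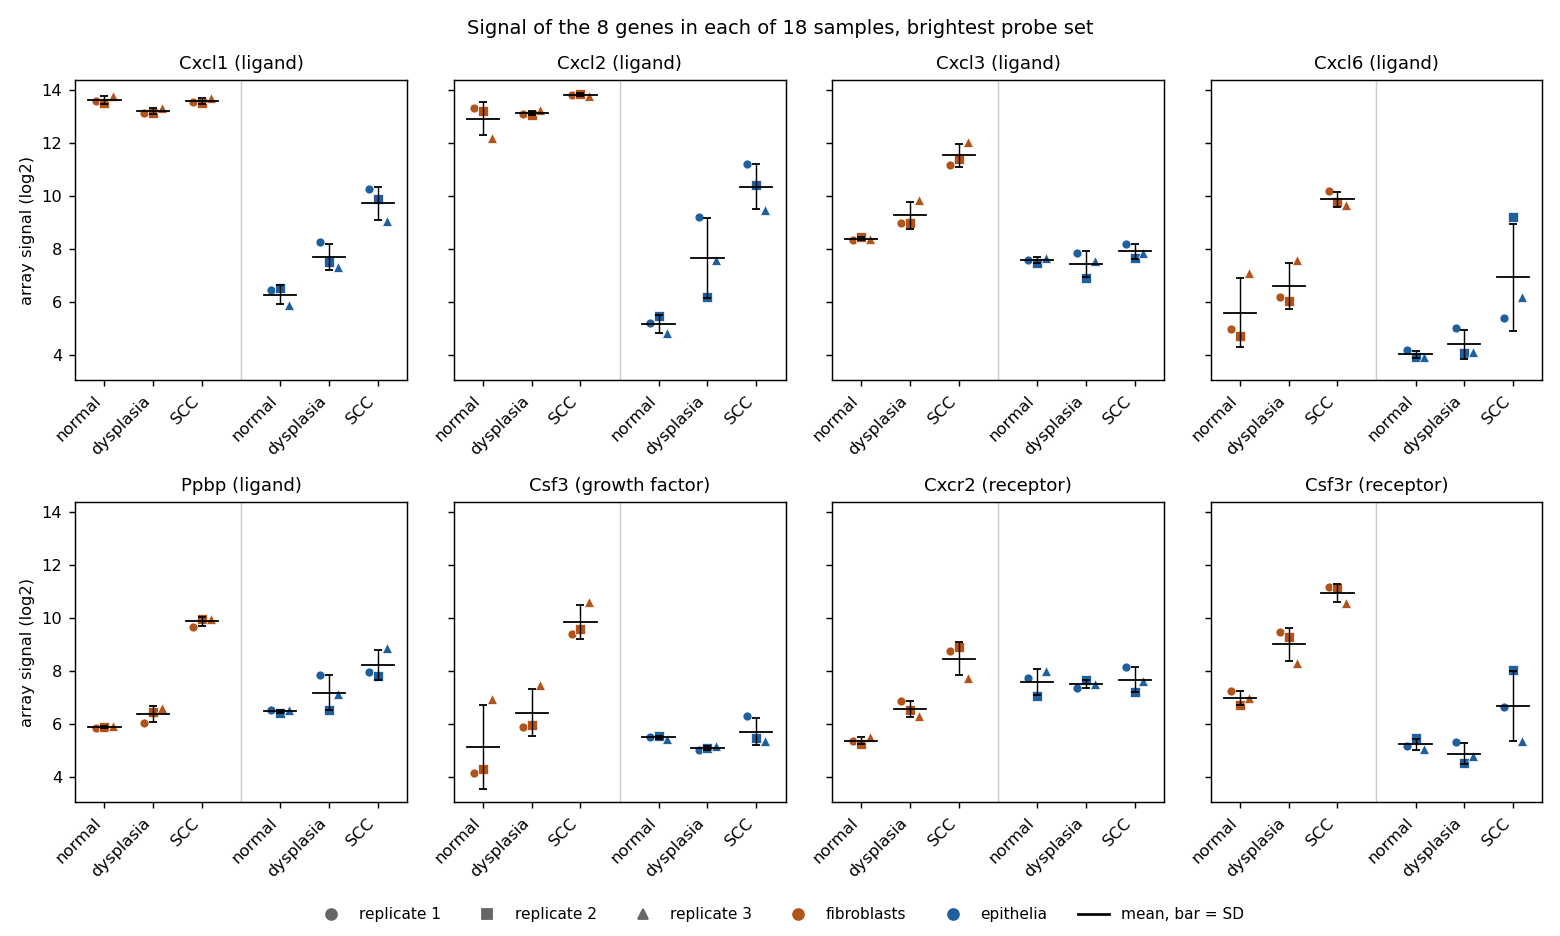
Array signal (log2, y axis) of the brightest probe set of each of the 8 genes in 18 samples, by stage within fibroblasts and epithelia. Each point is 1 sample (its shape gives the replicate number), the line is the group mean and the bar the SD; Cxcl1 and Cxcl2 sit above 12 in every fibroblast sample, and the 3 SCC fibroblast samples are the highest of all for Cxcl3, Cxcl6, Ppbp, Csf3 and Csf3r.

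Among the chemokines, Cxcl1 and Cxcl2 stood near the top of the fibroblast arrays at every stage and climbed in the epithelia with stage. Cxcl1, the main rat neutrophil chemoattractant (CINC-1), had signals of 87.4, 91.1 and 58.5 in normal epithelia, 308, 183 and 161 in dysplasia epithelia, and 1240, 941 and 529 in SCC epithelia. The 3 epithelial stages did not overlap. In fibroblasts it had 12335, 11864 and 14342 in normal samples, 9113, 9157 and 10471 in dysplasia, and 12164, 11680 and 13406 in SCC. All 3 dysplasia fibroblast samples were below the others, and normal and SCC fibroblasts overlapped. At most 0.48% of the probe sets on any fibroblast array were brighter than Cxcl1, so that its fibroblast values lay close to the upper end of the scale; the part of this in its small changes there was not tested.

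Cxcl2 (CINC-3, MIP-2) is induced quickly in myeloid and epithelial cells. It had signals of 36.8, 44.6 and 28.3 in normal epithelia, 590, 71.9 and 194 in dysplasia epithelia, and 2363, 1368 and 712 in SCC epithelia. The 3 stages did not overlap, although the dysplasia samples spread widely. In fibroblasts Cxcl2 had 10478, 9505 and 4730 in normal samples, 8877, 8666 and 9723 in dysplasia, and 14740, 15097 and 14018 in SCC. The SCC fibroblasts were above all other samples, and the normal and dysplasia fibroblasts overlapped.

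Cxcl3 (CINC-2) stayed low in epithelia by its brightest probe set and rose in fibroblasts. Its signals were 325, 349 and 331 in normal fibroblasts, 506, 509 and 927 in dysplasia fibroblasts, and 2334, 2704 and 4232 in SCC fibroblasts, with no overlap between the stages. In epithelia it had 193, 177 and 205 in normal samples, 230, 119 and 189 in dysplasia, and 294, 203 and 233 in SCC, with all 3 ranges overlapping.

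Cxcl6 (LIX), a further Cxcr2 ligand, was dim outside SCC. It had signals of 31.6, 26.0 and 138 in normal fibroblasts, 72.2, 64.9 and 193 in dysplasia fibroblasts, and 1160, 888 and 806 in SCC fibroblasts. SCC fibroblasts did not overlap any other group, and the highest normal and dysplasia values were both those of the samples numbered 3. In epithelia it had 18.2, 15.2 and 15.2 in normal samples, 32.6, 16.6 and 17.2 in dysplasia, and 42.3, 592 and 72.0 in SCC. A single SCC sample, replicate 2, carried most of the epithelial signal, and this sample also had the highest summed fibroblast marker signal of the epithelia (87272, against 23241 and 5431 in the other SCC epithelia).

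Ppbp had 58.0, 58.5 and 60.6 in normal fibroblasts, 66.1, 88.5 and 97.4 in dysplasia fibroblasts, and 813, 1012 and 1015 in SCC fibroblasts. Its stages did not overlap, and SCC stood far above the earlier stages. In epithelia its signals were 91.9, 85.7 and 91.0 in normal samples, 233, 92.6 and 141 in dysplasia, and 253, 224 and 464 in SCC. Every dysplasia and SCC epithelial sample was above the normal ones, and dysplasia overlapped SCC.

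The growth factor Csf3 had signals of 17.5, 19.7 and 123 in normal fibroblasts, 59.0, 61.8 and 175 in dysplasia fibroblasts, and 672, 765 and 1546 in SCC fibroblasts. In each fibroblast group the sample numbered 3 was the highest, and SCC did not overlap the earlier stages. In epithelia Csf3 was at 45.1, 47.1 and 43.4 in normal samples, 32.1, 33.9 and 36.3 in dysplasia, and 78.1, 44.2 and 40.9 in SCC, with normal and SCC overlapping.

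The 2 receptors had unlike profiles across the layers. Csf3r had 152, 106 and 127 in normal fibroblasts, 712, 620 and 316 in dysplasia fibroblasts, and 2331, 2240 and 1524 in SCC fibroblasts, with no overlap of stages. In epithelia it had 35.9, 43.9 and 33.4 in normal samples, 39.5, 22.8 and 27.7 in dysplasia, and 101, 260 and 40.8 in SCC, where SCC overlapped the normal samples.

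Cxcr2 had 41.0, 37.5 and 45.2 in normal fibroblasts, 118, 91.2 and 78.7 in dysplasia fibroblasts, and 439, 476 and 214 in SCC fibroblasts, again with no overlap of stages. In epithelia it had 215, 133 and 256 in normal samples, 165, 204 and 183 in dysplasia, and 286, 149 and 197 in SCC. The epithelial stages overlapped throughout, and every epithelial sample was above every normal and dysplasia fibroblast sample. In SCC and dysplasia fibroblasts the samples numbered 3 had the lowest signal of both receptors of their group and the highest signal of Csf3 and Cxcl3.

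Set in order over the 6 groups, Cxcl1, Cxcl2, Cxcl3 and Csf3r had every fibroblast group above every epithelial group by mean, whereas Ppbp and Cxcr2 had normal and dysplasia fibroblasts below all 3 epithelial groups. SCC fibroblasts had the highest mean for 7 members (15.2% of all genes), and normal fibroblasts for Cxcl1. The ranges of SCC fibroblasts and the next group down did not overlap for 6 members, Cxcl2, Cxcl3, Cxcl6, Ppbp, Csf3 and Csf3r, where 4.04% of all genes had both properties, and overlapped for Cxcr2, where the next group was SCC epithelia.

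The change from normal tissue to SCC split the members by layer. In epithelia, 4 of 8 members rose, all of them ligands, where 17.7% of all genes tested were called higher. Cxcl2 rose by 5.20 ± 0.69 (log2, SE; adjusted p = 0.00116) and Cxcl1 by 3.46 ± 0.35 (adjusted p = 0.000361). Cxcl6 was called at 2.91 ± 0.81 (adjusted p = 0.0262) and Ppbp rose by 1.73 ± 0.35 (adjusted p = 0.00671). Csf3 (0.20, 95% interval -0.29 to 0.70), Cxcl3 by its brightest probe set (0.33, -0.20 to 0.87) and the receptors Cxcr2 (0.07, -0.57 to 0.71) and Csf3r (1.45, 0.20 to 2.69; adjusted p = 0.0770) did not pass the test. Cxcl6 was dim in normal epithelia, and with all signals under 32 set to 32 it was at 1.93 and was not called (adjusted p = 0.167). Its call was also lost without any 1 normal epithelial sample (adjusted p from 0.0608 to 0.0717), and without SCC replicate 2 its value was 1.77 with the call kept (adjusted p = 0.00666). The calls of Cxcl1, Cxcl2 and Ppbp held with each sample left out in turn.

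In fibroblasts, 7 of 8 members rose between normal tissue and SCC, where 10.4% of all genes were called higher. Csf3 rose by 4.73 ± 0.75 (adjusted p = 0.00733), Cxcl6 by 4.28 ± 0.62 (adjusted p = 0.00556), Ppbp by 4.00 ± 0.17 (adjusted p = 2.58e-05) and Cxcl3 by 3.16 ± 0.28 (adjusted p = 0.000566). Both receptors rose, Csf3r by 3.98 ± 0.31 (adjusted p = 0.000352) and Cxcr2 by 3.11 ± 0.29 (adjusted p = 0.000849). Cxcl2 rose by 0.91 ± 0.27 (adjusted p = 0.0494), a call lost in 7 of 9 fits that left out 1 fibroblast sample (adjusted p from 0.0547 to 0.148); without normal replicate 3, which had the lowest value, it was 0.55 with the call kept (adjusted p = 0.0282). Cxcl1 changed by -0.05, with a 95% interval from -0.35 to 0.25, and did not pass the test; with spike-in scaling it was at 0.56 and did not pass either.

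**Figure D2:**
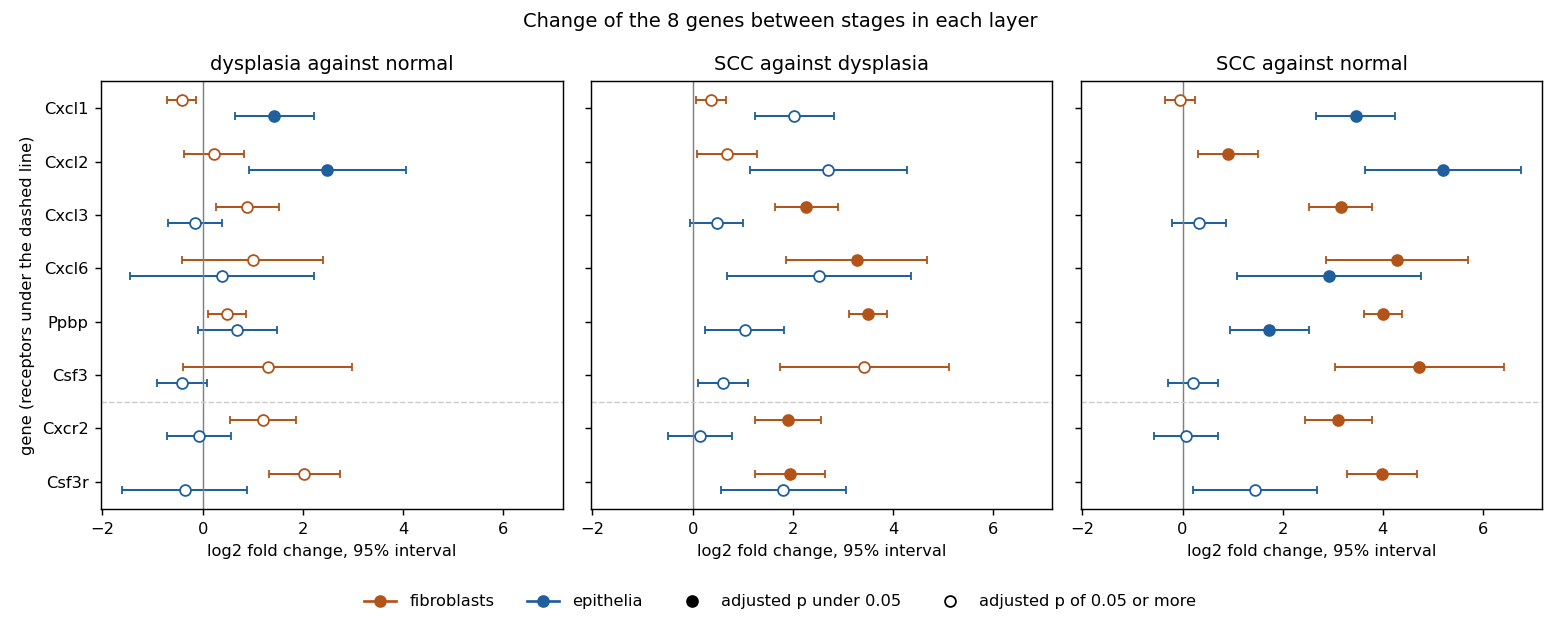
Log2 fold change (x axis, with its 95% interval) of the 8 genes for dysplasia against normal, SCC against dysplasia and SCC against normal, in fibroblasts and in epithelia. Filled points passed the test at an adjusted p under 0.05; for SCC against normal, Cxcl1 and Cxcl2 have the larger change in epithelia and every other member the larger change in fibroblasts.

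From normal tissue to dysplasia, 2 ligands were called in epithelia. Cxcl2 rose by 2.49 ± 0.69 (adjusted p = 0.0442) and Cxcl1 by 1.43 ± 0.35 (adjusted p = 0.0290), 2 of 8 members where 9.93% of all genes were called higher. Each call was lost in 6 of 9 fits with 1 epithelial sample left out, with adjusted p from 0.0568 to 0.0879 for Cxcl1 and from 0.0509 to 0.124 for Cxcl2, and each normal sample was among those whose loss ended the call. Without dysplasia replicate 1, the brightest of its group, the changes were 1.15 for Cxcl1 and 1.72 for Cxcl2. Neither receptor passed the test in this layer (Cxcr2 -0.08, Csf3r -0.36).

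In fibroblasts, none of the 8 members passed the test between normal tissue and dysplasia by limma, where 0.169% of all genes were called in either direction. At an unadjusted p under 0.05 stood 5 members by limma (19.9% of all genes) and 5 by the methods' t-test (15.3% of all genes), which called 0 after adjustment. The largest change was that of a receptor, Csf3r, at 2.03 ± 0.31 (adjusted p = 0.0532; 0.0152 and called with replicate numbers as a block), with Cxcr2 at 1.20 ± 0.29 (adjusted p = 0.129) and Cxcl1 at -0.42 ± 0.13 (adjusted p = 0.176). Without the 3 fibroblast samples numbered 3, 5 members were called higher (17.5% of all genes called higher) and 1 was called lower (15.1% of all genes called lower). Both receptors were then called, Csf3r at 2.39 (adjusted p = 0.00133) and Cxcr2 at 1.40 (adjusted p = 0.00286), together with Csf3 at 1.70, Cxcl6 at 1.26 and Cxcl3 at 0.59, while Cxcl1 was called lower at -0.41. These values rest on 2 samples a group.

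From dysplasia to SCC, 5 of 8 members rose in fibroblasts, where 1.6% of all genes were called higher. Ppbp had the most stable change, 3.51 with a 95% interval from 3.12 to 3.89 (adjusted p = 0.000195), and Cxcl3 changed by 2.27 (1.64 to 2.90; adjusted p = 0.00663); both calls held with each sample left out. Cxcl6 changed by 3.28 (adjusted p = 0.0370), a call lost in 6 of 9 such fits (adjusted p from 0.0527 to 0.162). The receptors changed by 1.94 (Csf3r) and 1.91 (Cxcr2), and each call was lost without SCC replicate 1, SCC replicate 2 or dysplasia replicate 2 (adjusted p from 0.0670 to 0.101 for Csf3r and from 0.0773 to 0.0898 for Cxcr2). Csf3 changed by 3.43, and its adjusted p of 0.0602 became 0.00732 once replicate numbers entered as a block. Same-numbered samples deviated together here, although their titles state no pairing. The blocked fit called 6 members, where it called 3.09% of all genes in either direction. Without the samples numbered 3, all 8 members were called higher, where 10.1% of all genes were, with Cxcl2 at 0.77 and Cxcl1 at 0.38.

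In epithelia, none of the members was called between dysplasia and SCC, where 0.0352% of all genes were called in either direction. Cxcl2 (2.71, 95% interval 1.14 to 4.28; adjusted p = 0.177) and Cxcl1 (2.03, 1.24 to 2.82; adjusted p = 0.0901) were among 5 members, with Cxcl6, Csf3 and Csf3r, whose SCC samples all lay above the dysplasia samples, as they did for 8.72% of all genes. Of the receptors, Cxcr2 was at 0.15 and Csf3r at 1.81 (0.56 to 3.05; adjusted p = 0.225). At an unadjusted p under 0.05, 6 members stood by limma (15.5% of all genes) and 1 by the methods' t-test (11.2% of all genes).

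The difference of the change between the layers was tested as an interaction, fibroblasts less epithelia. For SCC against normal, 2 members had the smaller change in fibroblasts, Cxcl2 (-4.29 ± 0.80, adjusted p = 0.00266) and Cxcl1 (-3.50 ± 0.39, adjusted p = 7.56e-05), where 8.05% of all genes were called in this direction. In the other direction, where 10.6% of all genes were called, stood 5 members: Csf3 (4.53 ± 0.84, adjusted p = 0.00265), Cxcr2 (3.04 ± 0.43, adjusted p = 0.000434), Cxcl3 (2.83 ± 0.39, adjusted p = 0.000337), Csf3r (2.53 ± 0.68, adjusted p = 0.0202) and Ppbp (2.26 ± 0.41, adjusted p = 0.00220). Cxcl6 was at 1.37 with a 95% interval from -0.99 to 3.72 and did not pass. The Csf3r call was lost without SCC fibroblast replicate 1 or 2 (adjusted p = 0.0515 and 0.0514); the other 6 calls held with each sample left out.

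By step, Cxcl1 differed between the layers from normal tissue to dysplasia (-1.85 ± 0.39, adjusted p = 0.0187), the 1 member called where 2.38% of all genes were called lower; without normal epithelia replicate 3 its adjusted p was 0.0509. From dysplasia to SCC, where 0.499% of all genes were called higher, Ppbp (2.47 ± 0.41, adjusted p = 0.0131) and Cxcl3 (1.79 ± 0.39, adjusted p = 0.0499) had the larger change in fibroblasts. The Cxcl3 call was lost in 15 of 18 fits with 1 sample left out (adjusted p from 0.0550 to 0.145), and that of Ppbp in none.

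Between the layers at a single stage, the ligands Cxcl1 and Cxcl2 were farther apart than any other member in normal tissue and dysplasia, and their gap was smallest in SCC, where those of Csf3r (4.29) and Csf3 (4.15) were larger. Fibroblasts against epithelia, the log2 difference of Cxcl1 was 7.37 ± 0.28 in normal tissue, 5.52 in dysplasia and 3.86 in SCC, and that of Cxcl2 was 7.76 ± 0.56, 5.49 and 3.47. That of Csf3 was -0.37 in normal tissue (adjusted p = 0.601), 1.34 in dysplasia (adjusted p = 0.0726) and 4.15 in SCC (adjusted p = 7.33e-05). In normal tissue 4 members were called higher in fibroblasts (31.6% of all genes) and 1 lower (35.1% of all genes); in dysplasia 5 were higher (26.5%) and 2 lower (27%); in SCC all 8 were higher (24.3%). These shares of all genes are large.

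The receptors differed here as well. Csf3r was higher in fibroblasts at each stage, by 1.76, 4.15 and 4.29 from normal tissue to SCC. Cxcr2 was lower in fibroblasts in normal tissue (-2.24 ± 0.31, adjusted p = 1.36e-05) and in dysplasia (-0.95 ± 0.31, adjusted p = 0.0171) and higher in SCC (0.80 ± 0.31, adjusted p = 0.0496). The SCC call of Cxcr2 was lost in 14 of 18 fits with 1 sample left out (adjusted p from 0.0513 to 0.185), and the dysplasia call without dysplasia epithelia replicate 2 or dysplasia fibroblast replicate 3 (0.0555 and 0.0676). Ppbp was also lower in dysplasia fibroblasts (-0.80, adjusted p = 0.0302), a call lost without dysplasia epithelia replicate 1, where it was -0.46, dysplasia epithelia replicate 3 or dysplasia fibroblast replicate 1 (adjusted p from 0.0591 to 0.174). The Cxcl6 call in dysplasia (2.20) was lost without dysplasia epithelia replicate 2 or 3 or dysplasia fibroblast replicate 3 (adjusted p from 0.0786 to 0.125), and the Cxcl3 call in normal tissue (0.81) without normal epithelia replicate 2 (adjusted p = 0.0530).

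Genes of the immediate early response, which cells switch on within minutes of a stimulus, also differed between the layers. All 13 of 13 measured genes of that list were called higher in fibroblasts at every stage, as were 31.6%, 26.5% and 24.3% of all genes from normal tissue to SCC. The list's median log2 difference was 2.12 in normal tissue, 2.01 in dysplasia and 2.21 in SCC, against a median over all genes of -0.10, -0.06 and 0.00. The median of this list was much the same at each stage, but its mean was not. From normal tissue to SCC its mean log2 signal was 12.94, 12.70 and 12.75 in fibroblasts and 9.58, 9.85 and 10.00 in epithelia. By these means the layers drew closer, as they did for Cxcl1 and Cxcl2, while the gap of Csf3 widened. Nr4a1 (5.03) and Ier2 (2.08), both immediate early genes, were among those of smallest adjusted p in normal tissue. The part of handling in the level of Cxcl1 and Cxcl2 in fibroblasts, or in the changing gaps of Cxcl1, Cxcl2 and Csf3, was not tested. Between stages, 0 of 13 were called for SCC against normal in fibroblasts (median -0.21), where 16.2% of all genes were called in either direction. In epithelia 1 was called, Egr2 (0.86), where 34.9% of all genes were called in either direction.

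The 5 probe sets of Cxcl3 did not tell 1 story in the epithelia. In SCC against normal fibroblasts, numbering the probe sets from 1, the brightest, to 5, the dimmest, sets 1 (3.16), 2 (4.55) and 3 (4.64) were all called higher, with set 2 at 3467, 3655 and 6097 in SCC, against 154, 168 and 232 in normal fibroblasts. Set 4 (0.50, adjusted p = 0.0944) was not called and set 5 (1.07, adjusted p = 0.0356) was. In SCC against normal epithelia set 1 did not pass (0.33), whereas sets 2 (2.11, adjusted p = 0.000644) and 3 (1.91, adjusted p = 0.00131) were called higher. Sets 4 (-0.54) and 5 (-0.98) were called lower there. Its larger change in fibroblasts for SCC against normal was called by sets 1 to 3 (from 2.44 to 2.83). Sets 4 and 5 were dim, set 5 with a signal of at most 19.1 in any sample, so that their folds are uncertain.

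**Figure D3:**
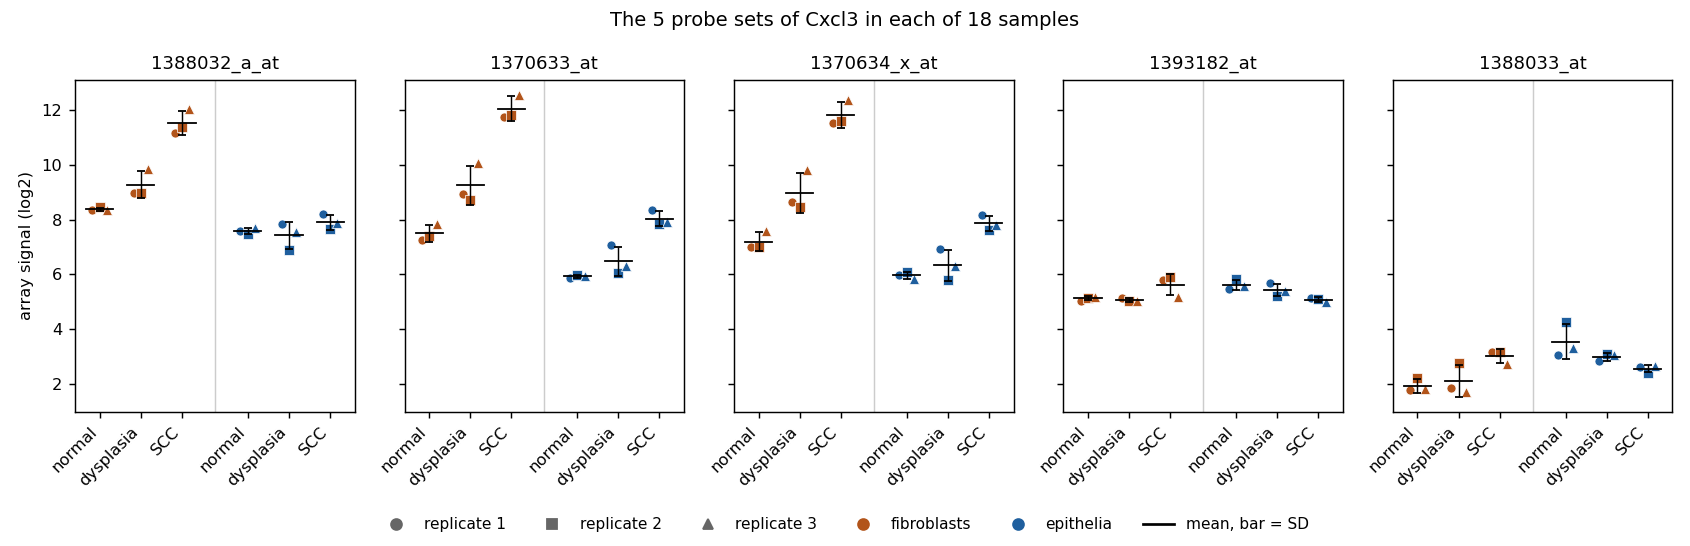
Array signal (log2, y axis) of each of the 5 probe sets of Cxcl3 in 18 samples, by stage within fibroblasts and epithelia, from the brightest on the left to the dimmest on the right. Points are samples, lines group means and bars SDs; sets 1 to 3 climb in fibroblasts from normal to SCC, sets 2 and 3 are also higher in SCC than in normal epithelia, and sets 4 and 5 stay below 6.

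Because neutrophils carry both receptors, genes of the neutrophil itself were read beside them. Of 24 listed granule and surface genes 11 were measured. In SCC against normal fibroblasts 5 rose with none lower (median 1.48, against 0.02 over all genes), where 10.4% of all genes were called higher. Il1r2, a decoy receptor for interleukin-1 that neutrophils carry, rose by 3.39 ± 0.29 (adjusted p = 0.000537) and Mmp8, the neutrophil collagenase, by 1.79 ± 0.19 (adjusted p = 0.00156). Ncf4 (1.90) and Ncf1 (0.91), subunits of the phagocyte oxidase, rose as well, while Itgam (1.48, adjusted p = 0.165) and Cxcr1 (-0.02, adjusted p = 0.948) did not pass. The summed signal of the list was 13408 to 14396 in SCC fibroblasts, against 4492 to 6113 in dysplasia and 1750 to 10001 in normal fibroblasts. Between dysplasia and SCC, Mmp8 (1.36) and Il1r2 (1.44) were called, where 1.6% of all genes were called higher. No listed gene of this kind was called in fibroblasts between normal tissue and dysplasia (median 0.05), where 0.169% of all genes were called in either direction. Csf3r was at 2.03 at that step. It was not called in the main fit and was called with replicate numbers as a block (adjusted p = 0.0152). Of the neutrophil genes that squamous epithelium also makes, Lcn2 was at 3.26 and S100a8 at 1.71 at that step, neither called. By group, the mean log2 signal of the granule and surface genes was 5.61 to 6.44 in epithelia, against 7.24 to 8.54 in fibroblasts. Cxcr2 did not follow this order, since every epithelial sample was above every normal and dysplasia fibroblast sample. The source of the epithelial Cxcr2 signal was not tested. How much of the receptors' change lay in neutrophils among the adherent cells was not tested.

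In epithelia the same list had 4 genes higher and 1 lower in SCC against normal (median 0.27). Of all genes, 17.7% were called higher and 17.2% lower there. Among the list's calls were Mmp9 (2.92) and Ncf4 (1.84) higher and Cxcr1 (-0.74) lower. The list's summed signal was 901 to 2670 in SCC, against 1269 to 1623 in normal epithelia. Over the same stages 12 of 16 macrophage and monocyte markers rose in epithelia (median 2.42), led by Tyrobp (4.13) and Aif1 (4.58), beside the change of Cxcl1 and Cxcl2; none of the 16 was called in fibroblasts (median -0.19). Of 16 fibroblast markers 4 were called higher in the same epithelia (median 2.64), against 17.7% of all genes, and their summed signal spread from 5431 to 87272 over the 3 SCC samples. The part of these cells in the epithelial ligand signal was not tested. Of the 3 SCC epithelial samples, replicate 3 had the least of both marker sums (5431 for fibroblasts and 3745 for macrophages, against 2901 to 8260 and 1797 to 1944 in normal epithelia) and also the lowest Cxcl1 and Cxcl2 (529 and 712, against at most 91.1 and 44.6 in normal epithelia).

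Neutrophil genes that squamous epithelium also makes changed in both layers. In SCC against normal fibroblasts 6 of 7 rose (median 2.63), where 10.4% of all genes were called higher, and in epithelia 17.7% were. Among the 6 were Hp, S100a9, S100a8 and Lcn2 (2.68, 1.63, 2.68 and 5.21). In SCC against normal epithelia 4 of 7 rose (median 3.63), led by S100a9 at 6.77 ± 0.35 (adjusted p = 8.16e-05) and S100a8 at 4.05 ± 0.24 (adjusted p = 9.39e-05), subunits of calprotectin. In dysplasia epithelia, S100a9 (4.82) and S100a8 (2.59) already passed the test.

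**Figure D4:**
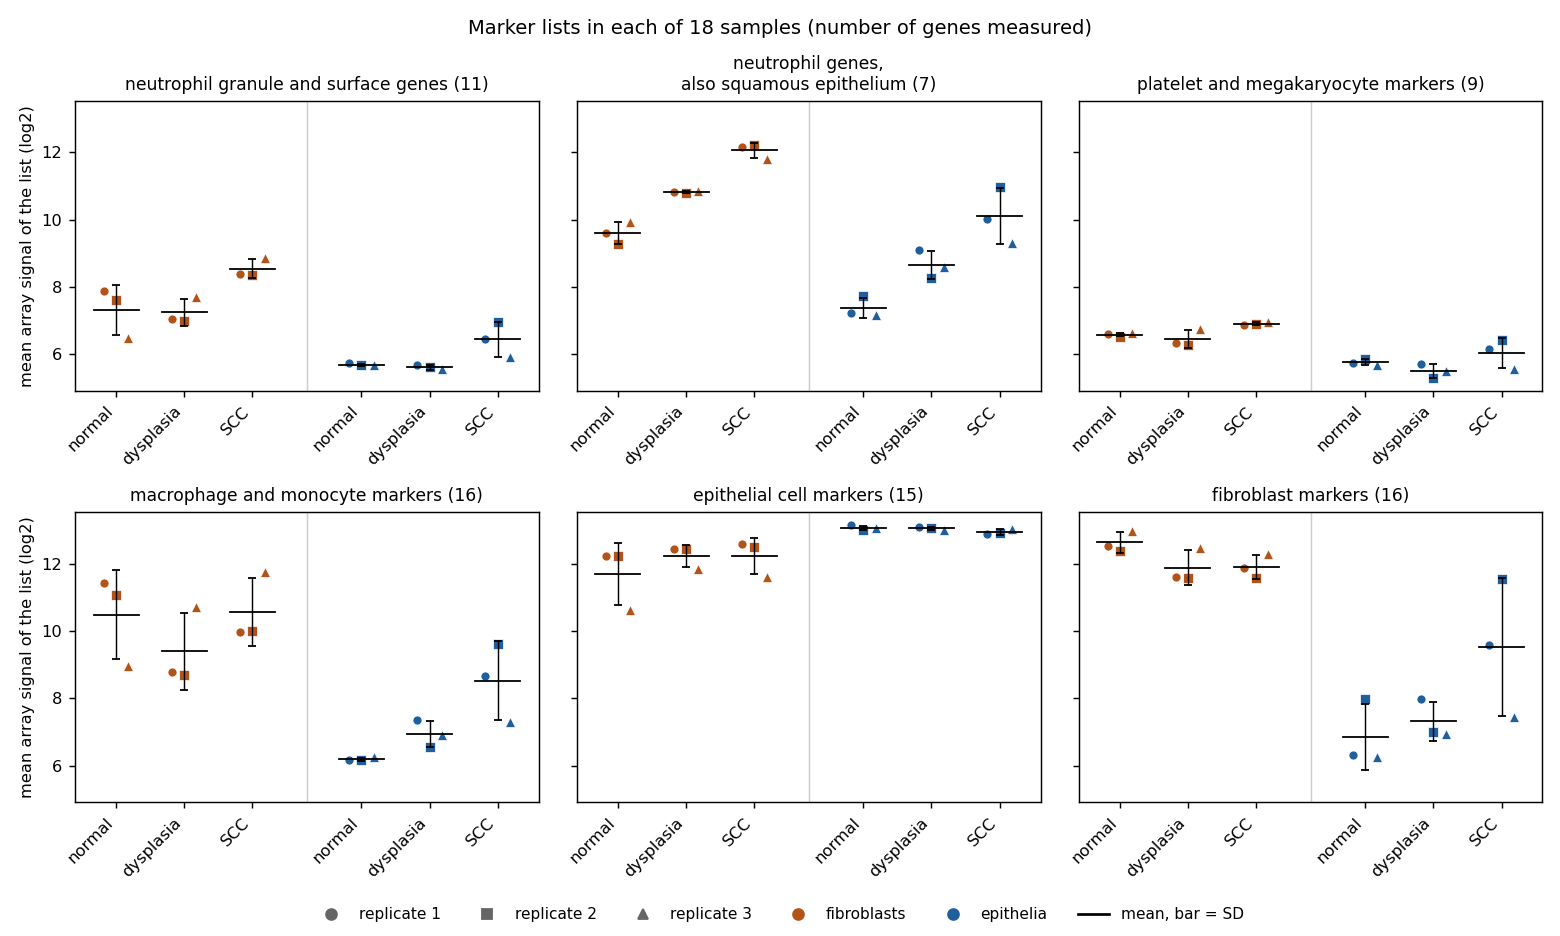
Mean array signal (log2, y axis) of 6 marker lists in 18 samples, by stage within fibroblasts and epithelia, with the number of genes measured in each title. Points are samples (shape by replicate number), lines group means and bars SDs; the neutrophil list is highest in SCC fibroblasts, and the fibroblast samples numbered 3 stand apart for macrophage and epithelial markers.

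Platelet genes were read beside Ppbp. In fibroblasts the mean log2 signal of their list was 6.45 to 6.90 by group, so that several were dim. Of 9 measured platelet and megakaryocyte markers, 1 was called in SCC against normal fibroblasts, where 16.2% of all genes were called in either direction. It was the transcription factor Nfe2 (2.70 ± 0.33, adjusted p = 0.00279), and the list's median was -0.03. Gp5, a platelet surface glycoprotein, had signals of 13.6 to 24.6 in SCC fibroblasts, against 12.2 to 13.4 in normal fibroblasts, and did not pass (0.38, adjusted p = 0.262). Pf4, the neighbour of Ppbp in the cluster, had 1993 to 4580 in SCC fibroblasts and 812 to 4082 in normal fibroblasts, and changed by 0.23 ± 0.78 (adjusted p = 0.865) where Ppbp changed by 4.00. From dysplasia to SCC in fibroblasts, Nfe2 was called at 1.92 (adjusted p = 0.0270) and Pf4 was at 1.51 (adjusted p = 0.359). In epithelia Pf4 rose from normal tissue to SCC (3.66, adjusted p = 0.0144) and Gp5 fell by 1.53 (adjusted p = 0.000952). The part of platelets in the Ppbp signal was not tested.

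The inducers and feedback genes of the NF-kB pathway rose with the ligands in part. Of 20 measured genes, 8 rose in SCC against normal fibroblasts (median 0.29) and 9 in epithelia (median 0.72), with none lower. Of all genes, 10.4% were called higher in fibroblasts and 17.7% in epithelia. In fibroblasts Il1a, the alarmin form of interleukin-1, rose by 4.01 ± 0.41 (adjusted p = 0.00121), Nfkb2 by 1.48 and the co-receptor Il1rap by 2.10. In epithelia Il1b rose by 4.61 ± 0.64 (adjusted p = 0.00140), Nfkb2 by 1.15 and the interleukin-17 receptor Il17ra by 1.19, whereas Il1a was at -0.05 (adjusted p = 0.879). Between dysplasia and SCC in fibroblasts 5 rose, where 1.6% of all genes were called higher. Among them were Il1rap (1.56) and Zc3h12a (1.14), an RNase that degrades inflammatory messages.

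Other routes of leukocyte attraction were read beside the members. For SCC against normal, 10.4% of all genes were called higher and 5.87% lower in fibroblasts, and 17.7% and 17.2% in epithelia. The 13 CXC chemokine and receptor genes outside the ELR group had 1 called higher, Cxcr4 (1.34), and 1 called lower, Ackr3 (-0.74), in SCC against normal fibroblasts (median 0.16), and 6 higher in epithelia (median 0.56), led by the interferon-induced Cxcl9 (3.52) and Cxcl10 (3.51). Of 11 other neutrophil attractants and their receptors, 4 rose in fibroblasts, among them complement C3 (2.52) and the leukotriene B4 receptor Ltb4r (1.83). Of 13 adhesion genes used in leaving the vessel, none was called in fibroblasts (median 0.04) and 4 rose in epithelia, led by Icam1 (2.02). Of the 10 other myeloid growth factor and receptor genes, none was called in SCC against normal fibroblasts (median 0.10), and 3 rose in epithelia: Csf2ra (1.12), Il34 (1.30) and Csf1r (1.90). Mast cell markers moved with the fibroblast stages too, with 4 of 10 higher in SCC against normal (median 1.41), led by Mcpt10 (4.68), as did 4 of 12 T and NK cell markers (median 0.55). Of 5 red cell markers 2 were lower, and none of 10 endothelial or 15 epithelial markers was called. The part of these cells in the members' signal was not tested.

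The genes whose profile was most like each member were taken as those with the smallest root mean square difference of mean-centred log2 signal over the 18 samples, among 9230 genes. For Cxcl2 these were Il1b (0.44), Ccl3 (0.74) and Mmp3 (0.76), and for Cxcl1 Clic2 (0.61), Tnfaip3 (0.62) and Cd302 (0.63). For Cxcl3 they were Cflar (0.47), Runx3 (0.54) and Il1a (0.55), and for Csf3 Il1a (0.88), Il24 (0.90) and Cflar (1.01). Ppbp lay nearest to Areg (0.69), Il24 (0.78) and Il1rn (0.82), and Cxcl6 to Bst1 (0.96), C3 (1.01) and Ifit3 (1.02). The receptors had other neighbours, Ifit3 (0.49), Batf (0.52) and Osm (0.56) for Csf3r and Prss22 (0.43), Drg1 (0.51) and Ampd3 (0.52) for Cxcr2. Samples of 1 group share layer and stage, so that this likeness describes mainly the 6 group means.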

How the data were processed

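Total RNA of 18 samples was put on Affymetrix Rat Genome 230 2.0 arrays. The deposited values are array intensities on a linear scale, lowest at 1 on every array; the authors used RMA in Affymetrix Expression Console, per the labels, with the step to linear values not stated there. Arrays have no read depth, so that their number limits the precision. Of 31099 probe sets, 57 controls were left out; 20826 of the rest named 1 gene, 436 several and 9780 none in GEO's platform annotation. The log2 intensity was fitted with limma 3.58.1 in R 4.3.3 with default eBayes settings: stage comparisons on the 9 arrays of a layer, layer comparisons and interactions on all 18, with Benjamini-Hochberg adjustment over 31042 probe sets and a threshold of 0.05. The fit was tested on simulated data. With 3 samples on each side the smallest exact permutation p is 0.1, so that no such test was run. Arrays of 1 group correlated at 0.961 to 0.995.

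Samples were grouped by their titles. Same-numbered fibroblast samples tended to deviate together, although the titles give numbers only and state no pairing. Over all probe sets all 3 pairs were over 0.1 for SCC and dysplasia fibroblasts (0.321 to 0.592) but not for dysplasia and normal (0.026 to 0.194) or SCC and normal (0.066 to 0.229); over probe sets of a mean log2 signal of at least 7 they were over 0.1 for all of these (0.584 to 0.703, 0.122 to 0.321 and 0.180 to 0.362). No comparison in epithelia or between layers met this. For SCC and dysplasia fibroblasts over all probe sets, 4 of 6 samples were most alike with their own number. Different numbers there correlated at up to 0.352. The part of the samples numbered 3 in these correlations was not tested. Blocked values are given in fibroblasts where they change a call.

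Members and the 16 gene lists were chosen with earlier results of these data known. All members were named; from each list, up to 4 genes a comparison that were called, by adjusted p, and defining markers; and the 3 most alike genes of each member, at a mean log2 signal of at least 7. Promoters came from RefSeq (GRCr8). Alternatives were quantile and spike-in scaling, a floor of 32, a filter on dim probe sets, other sample sets, a replicate block, other eBayes settings, the methods' t-test, another probe set and each sample left out.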

Additional observations from a re-analysis of the deposited data

Results flagged for a closer look

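The change between stages differed between the layers, by the interaction test, for the results named next. Cxcl1 had the smaller change in fibroblasts from normal tissue to dysplasia (-1.85) and from normal tissue to SCC (-3.50), and so had Cxcl2 from normal tissue to SCC (-4.29). The larger change was in fibroblasts for Cxcl3 (1.79 from dysplasia to SCC and 2.83 from normal tissue to SCC) and for Ppbp (2.47 and 2.26 over the same stages). From normal tissue to SCC it was also in fibroblasts for Csf3 (4.53), Cxcr2 (3.04) and Csf3r (2.53). The layers were handled differently at every stage, and the fibroblast signals of Cxcl1 and Cxcl2 lay close to the upper end of the scale; neither was tested as a cause.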

How the results depend on the processing

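Counts of members called moved by over 1.5 times in the cases given next. Of the 2 calls for dysplasia against normal epithelia, 0 were left with the floor of 32 and 1 each with other eBayes settings and with the methods' t-test. SCC against dysplasia epithelia had 1 call (Cxcl1) with spike-in scaling and with all arrays in 1 fit. Dysplasia against normal fibroblasts had 1 with spike-in scaling and with other eBayes settings, 2 with all arrays in 1 fit, and 6 without the samples numbered 3. SCC against dysplasia fibroblasts had 3 with the floor, 8 with spike-in scaling, 1 by the methods' t-test and 8 without the samples numbered 3. SCC against normal fibroblasts had 4 by the methods' t-test. The interaction for dysplasia against normal had 2 without dim probe sets, 3 with only its own groups and 4 without the samples numbered 3; that for SCC against dysplasia had 1 with the floor, 4 with spike-in scaling, 0 with only its own groups, 1 with the next probe set of Cxcl3 and 4 without the samples numbered 3. The replicate block gave 1 call for dysplasia against normal fibroblasts (5.9% of all genes called) and 6 for SCC against dysplasia fibroblasts (3.09%). It gave 0 for the interactions of dysplasia against normal and SCC against dysplasia, and changed no other count by over 1.5 times. The cause of these shifts was not tested. With 1 sample left out, the counts ranged over 0 to 3, 0 to 2 and 3 to 5 in epithelia (dysplasia against normal, SCC against dysplasia, SCC against normal), over 0 to 2, 2 to 7 and 6 to 7 in fibroblasts, over 4 to 6, 5 to 8 and 7 to 8 between layers from normal tissue to SCC, and over 0 to 2, 1 to 3 and 6 to 7 for the interactions.

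Spike-in scaling moved the median of all probe sets by 0.72 (SCC against dysplasia, fibroblasts), 0.61 (SCC against normal, fibroblasts), -0.11 (dysplasia against normal, fibroblasts), 0.15 (dysplasia against normal, epithelia), and -0.86, -1.12 and -0.31 between layers from normal tissue to SCC. The share of calls that were higher became 97.9% (51.3% before) for SCC against normal fibroblasts, 99.9% (82.5%) for SCC against dysplasia fibroblasts, 69.6% (48.1%) for dysplasia against normal epithelia, and 14.8% (43.7%), 8.04% (45.7%) and 28.6% (52.6%) between layers. Interaction medians moved by -0.27, 0.81 and 0.55. For SCC against dysplasia fibroblasts, spike-in scaling called 9161 probe sets, against 573 before. Under it Cxcl3 in normal fibroblasts against epithelia turned to -0.048 (adjusted p = 0.891), the only called direction of a member that reversed under these alternatives; over all of them, called values stayed called 1015 times and lost the call 119 times, and uncalled values stayed so 943 times and gained a call 70 times.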
